A study of Mus musculus with 6 samples.

Results

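Integrins are the adhesion receptors with which T cells hold on to other cells and to matrix. Each receptor is a pair of an alpha and a beta subunit, and the pair decides what is bound. Lymphocytes are known to keep integrins in a resting, bent state until signals from the T cell receptor or chemokine receptors reach the cytoplasmic tails, where talin and kindlin bind. In regulatory T (Treg) cells, the Foxp3-expressing CD4 cells that keep immunity in check, integrins are known for steering cells to tissues and for releasing active TGF-beta from its latent complex. Examined here is the RNA of 10 integrin subunit genes, 5 alpha (Itgae, Itga4, Itga6, Itgal and Itgav) and 5 beta (Itgb1, Itgb2, Itgb3, Itgb7 and Itgb8), out of 14608 genes in the deposited tables. They were chosen by symbol as the integrin subunits of T cells, with earlier results of these data known. Counts of the set beside those of all genes are therefore descriptions. All 10 were found in both tables under 1 gene ID each.

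The RNA came from mouse spleen cells that were enriched for CD4 and then sorted by flow cytometry for CD4 and the fluorescent protein YFP. The 3 genotypes gave 2 libraries each, 6 in all: wild type (WT), Cdc42 knockout on 1 allele (labelled Cdc42+/-) and on both (labelled Cdc42-/-). Cdc42 is a small GTPase that organises actin and cell polarity. The sources used here do not give what drives YFP or the knockout, nor the strain, age or sex of the mice, and all 3 genotypes were sorted on YFP. The design text counts 2 mice for each genotype, so a p-value here measures the spread between these few libraries.

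A library held between 8556576 and 17796100 reads in genes. Cdc42, the targeted gene, measured 166 and 161 RPKM (reads scaled to gene length and library total) for WT, 164 and 156 for Cdc42+/-, and 122 and 173 for Cdc42-/-. Its log2 fold change in Cdc42-/- against WT was -0.17 (limma, adjusted p 0.550), with -0.42 (adjusted p 0.0166) without Cdc42-/- replicate 2 and 0.08 (adjusted p 0.474) without replicate 1. Its RNA thus did not separate the labels with all libraries, and a value over the whole gene does not show whether a deleted part is missing. All 7 Treg cell markers, Foxp3 among them, were detected in every library. Their summed level was 1390 and 1320 RPKM for WT, 1340 and 1250 for Cdc42+/-, and 1170 and 909 for Cdc42-/-, so the Cdc42-/- libraries were the lowest. In Cdc42-/- against WT 6 of the 7 were lower, as were 5989 of all 12233 genes tested, and 2 fell, where 4.57% of all genes did. These were Cd3e (log2 fold change -0.78, limma adjusted p 0.0126) and Ikzf2 (-0.90, adjusted p 0.0311), which were chosen for naming, and for the fits without 1 library, after their values were seen. Both calls were lost when any 1 WT or Cdc42+/- library was left out (adjusted p 0.0597 to 0.176), and Ikzf2 fell by 0.63 without Cdc42-/- replicate 2. Ctla4, the marker that was higher, was at 157 and 130 RPKM for WT and 202 and 201 for Cdc42-/- (0.49, limma adjusted p 0.0524). Foxp3 was at 58.4 RPKM in Cdc42-/- replicate 2 and at 103 to 131 RPKM elsewhere. The part of these marker levels in the integrin results was not tested. Cdc42-/- replicate 2 stood apart: all 13 of 13 myeloid markers were highest there, and their summed level was 1480 RPKM against 50.7 to 98.9 RPKM in the other 5 libraries. Summed B cell markers were at 10.1 to 18.9 RPKM and CD8 T and NK cell markers at 8.16 to 11.9 RPKM over the 6 libraries. The sex-linked genes also divided the libraries. Both WT libraries expressed Ddx3y, a Y chromosome gene (37.7 and 42.4 RPKM), and both Cdc42+/- libraries instead expressed Xist, the RNA of the inactive X chromosome (99.3 and 93.3 RPKM). Cdc42-/- replicate 1 had Xist at 87.4 and Ddx3y at 0.0974 RPKM, while replicate 2 had both, at 21.2 and 27.5 RPKM. In Cdc42+/- against WT these genes and the genotype cannot be told apart, and their part in the Cdc42-/- results was not tested.

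In WT Treg cells the subunits of the gut-homing and leukocyte integrins were the most abundant. RPKM corrects for gene length, so levels can be set side by side. Itgb7, the beta subunit that pairs with the products of Itga4 and Itgae, led at 293 ± 15.6 RPKM (mean ± SD, n = 2). Next came the parts of LFA-1, the ICAM receptor of leukocytes, with Itgb2 at 214 ± 3.45 RPKM and Itgal at 190 ± 17.8 RPKM. Itga4 and Itgb1, which together form the VCAM-1 receptor, were at 104 ± 8.87 and 99.9 ± 0.961 RPKM, and their WT libraries overlapped. Itga6, a laminin-binding alpha subunit, was lower, at 58.6 ± 0.114 RPKM. At the bottom lay Itgae (14.9 ± 3.14 RPKM) and Itgav (14.6 ± 1.19 RPKM), whose libraries overlapped, then Itgb3 (12.8 ± 1.30 RPKM) and Itgb8 (8.08 ± 0.039 RPKM). Every other neighbouring pair in this order was separated in both WT libraries.

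**Figure D1:**
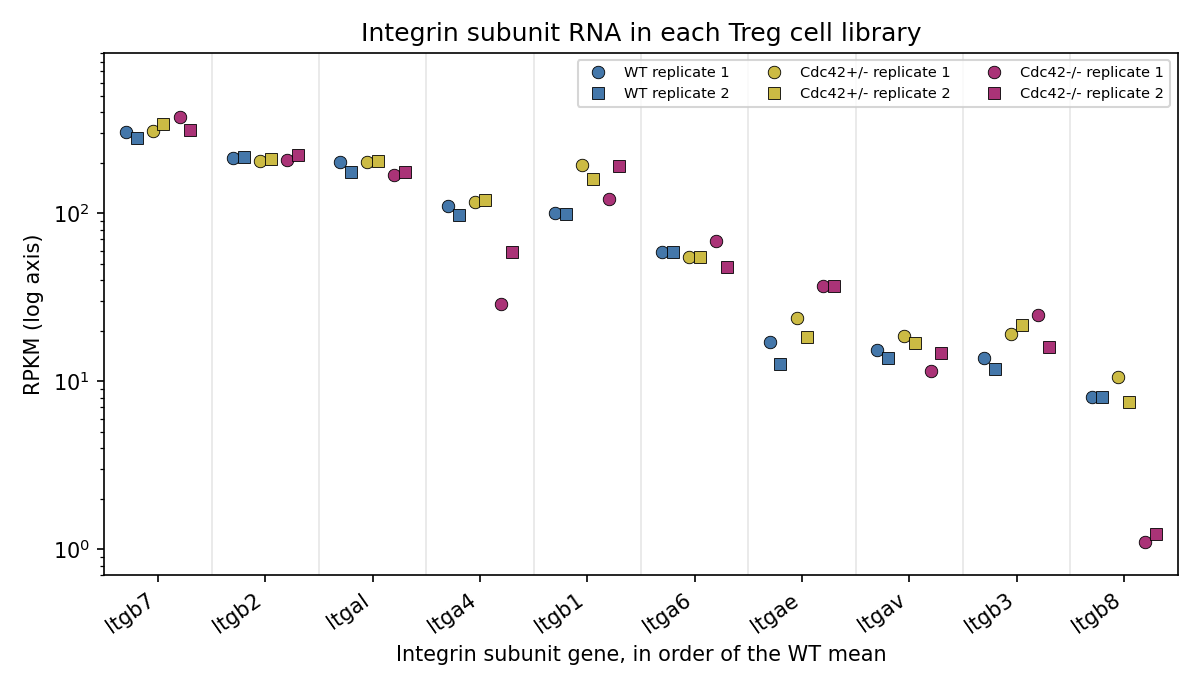
RPKM (log axis) of the 10 integrin subunits in each of the 6 libraries, in order of the WT mean; each point is 1 library, circles are replicate 1 and squares replicate 2. The Cdc42-/- points of Itgb8 and Itga4 lie below the points of the other genotypes, and those of Itgae lie above them.

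The order for Cdc42+/- was Itgb7 (326 RPKM), Itgb2 (207 RPKM) and Itgal (203 RPKM), whose libraries overlapped, Itgb1 (177 RPKM), Itga4 (119 RPKM), Itga6 (54.8 RPKM), Itgae (21.1 RPKM) and Itgb3 (20.4 RPKM), which overlapped, Itgav (17.8 RPKM) and Itgb8 (9.05 RPKM). For Cdc42-/- the order differed mainly in the middle. Itgb7 (342 RPKM), Itgb2 (214 RPKM), Itgal (172 RPKM) and Itgb1 (157 RPKM) led, the last pair overlapping. Itga6 (58.2 RPKM), Itga4 (44.1 RPKM) and Itgae (36.9 RPKM) followed, and neighbours among these 3 overlapped between libraries. Itgb8 was again the lowest, at 1.17 RPKM. The summed RPKM of the 10 genes was 1042 and 978 for WT, 1156 and 1155 for Cdc42+/-, and 1040 and 1078 for Cdc42-/-. The sum of the beta subunits over that of the alpha subunits was 1.58 and 1.71 for WT, 1.78 and 1.79 for Cdc42+/-, and 2.31 and 2.22 for Cdc42-/-. Both Cdc42-/- libraries thus lay above the other 4 in this ratio. The alpha sum was 404 and 360 RPKM for WT and 314 and 335 for Cdc42-/-, and Itga4 within it was at 111 and 98.0, then 28.9 and 59.2. The beta sum was 638 and 618 RPKM for WT and 726 and 743 for Cdc42-/-. The ratio therefore includes the fall of Itga4 and is not separate from it.

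Against WT, 3 of the 10 subunits changed in Cdc42-/-: Itgae rose, and Itga4 and Itgb8 fell (limma on log2(RPKM + 1), adjusted p under 0.05). Of all 12233 genes tested, 11.4% changed in this comparison, 6.86% upward and 4.57% downward. The median log2 fold change was -0.02 over the 10 subunits and 0.01 over all genes. The WT and Cdc42-/- libraries did not overlap for 7 of the 10 subunits, while this held for 56.0% of all genes. Leaving out 1 library moved the number of changed subunits to 2 without WT replicate 1, 1 without WT replicate 2, 2 without either Cdc42+/- library, 5 without Cdc42-/- replicate 1 and 4 without Cdc42-/- replicate 2. Calls over all genes moved in the same way: 2.12% and 2.14% passed without WT replicates 1 and 2, 4.47% and 4.50% without Cdc42+/- replicates 1 and 2, 36.2% without Cdc42-/- replicate 1 and 18.5% without replicate 2. Where this leaves a genotype with 1 library, that library is assumed to vary like the others, which limma's array weights do not bear out. These weights, lower for a wider spread, were 0.357 for both Cdc42-/- libraries, 1.21 for WT and 2.32 for Cdc42+/-. Without 1 Cdc42-/- library the spread is thus taken from the quieter WT and Cdc42+/- libraries alone. With all 6 libraries the 3 genotypes share 1 estimate of the spread.

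Itgb8 encodes the beta subunit that pairs only with the product of Itgav, and that pair binds latent TGF-beta and helps to activate it. The gene lies on the minus strand of chromosome 12 (GRCm38, chr12:119162803-119238276). It was at 8.06 and 8.11 RPKM for WT, 10.6 and 7.49 for Cdc42+/-, and 1.11 and 1.24 for Cdc42-/-. Both Cdc42-/- libraries lay far below the other 4, which overlapped between WT and Cdc42+/-. The WT mean was 6.89 times the Cdc42-/- mean, and the log2 fold change was -2.06 (SE 0.20, limma adjusted p 0.00345). Among the 10 subunits it had the fewest reads, 35 to 504 in a library. The fall in Cdc42-/- passed the threshold in 15 of 15 alternative analyses, with adjusted p between 0.00115 and 0.0465. It was -2.11 without Cdc42-/- replicate 2, the library with the myeloid markers, and -2.02 without replicate 1. The log2 fold change was -2.69 with a pseudocount of 0.1 in place of 1 and -2.77 with limma's voom on the recovered reads, and the authors' deposited table gives -2.83 (adjusted p 5.69e-05).

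Itgae encodes CD103, the alpha subunit that with Itgb7 binds E-cadherin on epithelial cells and marks Treg cells of tissues and inflamed sites. It lies on chromosome 11 (GRCm38, chr11:73090505-73147449). Its level was 17.1 and 12.6 RPKM for WT, 23.8 and 18.4 for Cdc42+/-, and 37.1 and 36.8 for Cdc42-/-. The 3 genotypes did not overlap, with WT lowest and Cdc42-/- highest. Cdc42-/- was 2.48-fold above WT, a log2 fold change of 1.27 (SE 0.19, limma adjusted p 0.0109). This call was lost without WT replicate 2 (log2 fold change 1.07, adjusted p 0.0842) and held in the other 14 of 15 alternatives. Without Cdc42-/- replicate 2 the log2 fold change was 1.28, and the authors' deposited table gives 1.26 (adjusted p 3.85e-05).

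Itga4 encodes the alpha subunit of the receptors for VCAM-1 (with Itgb1) and for the gut addressin MAdCAM-1 (with Itgb7). It lies on the plus strand of chromosome 2 (GRCm38, chr2:79255426-79333114). WT had 111 and 98.0 RPKM, Cdc42+/- 117 and 120 RPKM, and Cdc42-/- 28.9 and 59.2 RPKM. Both Cdc42-/- libraries lay below the other 4, and they differed from each other more than the libraries of either other genotype did. On the log2 scale Itga4 fell by 1.31 (SE 0.31, limma adjusted p 0.0457). Filters, a replicate block, array weights and changes to the Cdc42+/- libraries left the log2 fold change at -1.31. They do not enter this difference of means, so its direction there was fixed. Over all 15 alternatives it ranged from -1.81 without Cdc42-/- replicate 2 to -0.80 without Cdc42-/- replicate 1. The call was lost in 7 of them, and adjusted p ranged from 0.000278 to 0.217. Among these it was 0.217 without WT replicate 1, 0.198 without WT replicate 2, 0.116 without either Cdc42+/- library, 0.118 with only the compared genotypes in the fit and 0.0611 with no filter on low values. The authors' deposited table gives -1.30 (adjusted p 0.000451). In the GENCODE annotation 1124 exon bases of Itga4 are shared with Cerkl on the opposite strand, and the strand setting of the counting is not stated. Cerkl itself was at 0.436 to 2.79 RPKM.

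**Figure D2:**
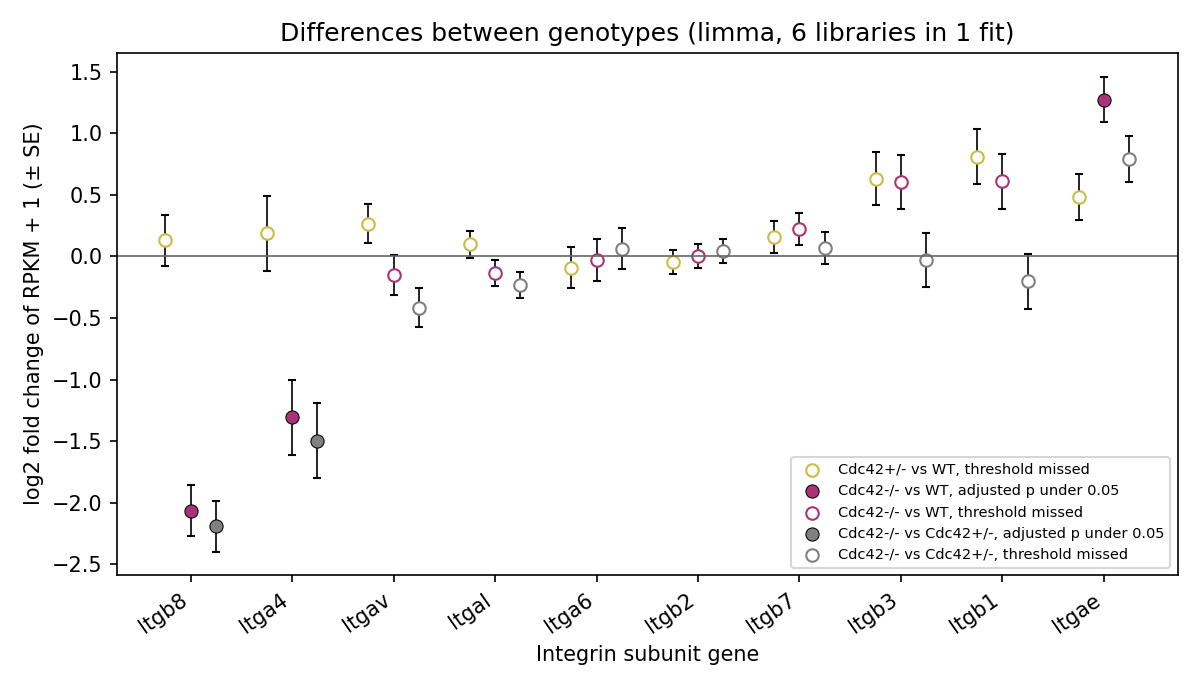
Log2 fold change of RPKM + 1 for each integrin subunit in the 3 comparisons of genotypes, with bars of 1 standard error from limma; filled points pass an adjusted p of 0.05 and open points do not. Itgb8 and Itga4 lie below 0 in both comparisons that involve Cdc42-/-, and Itgae (1.27) is the 1 filled point above 0.

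The upstream sequences of Itga4, which fell, and of its partner Itgb1, which did not, are shown for comparison. Each holds the 250 bases before the RefSeq start (GRCm38.p6, plus strand), at chr2:79255176-79255425 and chr8:128685404-128685653, with matches to 4 short motifs in capitals. The letters searched on both strands were TGTGGT (RUNX), GGAAGT (ETS), CAGACA (SMAD) and GGGCGG (SP/KLF).
Itga4: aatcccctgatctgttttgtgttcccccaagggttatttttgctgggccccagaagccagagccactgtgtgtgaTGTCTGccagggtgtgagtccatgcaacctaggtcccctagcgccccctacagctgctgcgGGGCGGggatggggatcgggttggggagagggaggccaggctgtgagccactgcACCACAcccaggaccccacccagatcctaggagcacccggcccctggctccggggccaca
Itgb1: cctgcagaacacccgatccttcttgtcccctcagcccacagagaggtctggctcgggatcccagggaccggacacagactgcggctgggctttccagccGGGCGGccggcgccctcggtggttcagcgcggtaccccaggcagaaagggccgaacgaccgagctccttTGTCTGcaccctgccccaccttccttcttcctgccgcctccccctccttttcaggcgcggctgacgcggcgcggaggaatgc
Itga4 held 1 RUNX, 1 SMAD and 1 SP/KLF match and 0 ETS matches, with 0 overlaps between motifs. Itgb1 held 1 SMAD and 1 SP/KLF match, and neither RUNX nor ETS letters. Among 32841 promoters of the same length, 14.0% held the RUNX, 19.7% the ETS, 17.1% the SMAD and 32.7% the SP/KLF letters. RefSeq promoters matched 5 of the 10 subunits. These are matches of letters, not binding sites, and the data do not bear on binding.

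The partners of the 3 changed subunits did not pass the threshold. Itgb7, the partner of Itgae and Itga4, was at 304 and 282 RPKM for WT, 311 and 342 for Cdc42+/-, and 372 and 313 for Cdc42-/-. Its log2 fold change in Cdc42-/- against WT was 0.22 (95% confidence interval -0.10 to 0.53, limma adjusted p 0.309). Itgav, the partner of Itgb8, was at 15.4 and 13.8 RPKM for WT, 18.7 and 16.8 for Cdc42+/-, and 11.5 and 14.7 for Cdc42-/-. WT and Cdc42-/- overlapped for Itgav, and the log2 fold change was -0.15 (95% confidence interval -0.54 to 0.23, limma adjusted p 0.561). Part of an Itgav exon, 634 bases, is shared with the transcript Gm13684 on the other strand.

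Itgb1, the widely used beta subunit of fibronectin, laminin and VCAM-1 receptors, was at 101 and 99.2 RPKM for WT, 195 and 159 for Cdc42+/-, and 121 and 192 for Cdc42-/-. All 4 knockout libraries lay above both WT libraries. Its log2 fold change in Cdc42-/- was 0.61 (95% confidence interval 0.06 to 1.15, limma p 0.0344, adjusted p 0.136). Without Cdc42-/- replicate 1 it was 0.94 (adjusted p 0.00195), and without replicate 2 it was 0.28 (adjusted p 0.176). The higher value was that of replicate 2, the library with the myeloid markers.

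Itgb3, which with Itgav makes the vitronectin receptor, was at 13.7 and 11.9 RPKM for WT, 19.1 and 21.6 for Cdc42+/-, and 24.8 and 15.9 for Cdc42-/-. Here too the 4 knockout libraries lay above both WT libraries. The log2 fold change in Cdc42-/- was 0.60 (95% confidence interval 0.07 to 1.13, limma p 0.0321, adjusted p 0.130), and it was 0.91 (adjusted p 0.00780) without Cdc42-/- replicate 2 and 0.29 (adjusted p 0.165) without replicate 1.

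Neither LFA-1 subunit passed the threshold. Itgal was at 202 and 177 RPKM for WT, 201 and 204 for Cdc42+/-, and 169 and 176 for Cdc42-/-, a log2 fold change in Cdc42-/- of -0.14 (95% confidence interval -0.40 to 0.13, limma adjusted p 0.440). Itgb2 was at 212 and 216 RPKM for WT, 204 and 211 for Cdc42+/-, and 207 and 221 for Cdc42-/-, with a 95% confidence interval of -0.24 to 0.24 (limma adjusted p 0.997). Itgb2 is also the beta subunit of myeloid integrins, and the part of myeloid RNA in its level in Cdc42-/- replicate 2 was not tested. The laminin receptor subunit Itga6 was at 58.7 and 58.5 RPKM for WT, 54.9 and 54.8 for Cdc42+/-, and 68.2 and 48.2 for Cdc42-/-. The Cdc42-/- libraries of Itga6 lay on opposite sides of WT, and the log2 fold change was -0.03 (95% confidence interval -0.44 to 0.38, limma adjusted p 0.921). It was -0.28 without Cdc42-/- replicate 1 (adjusted p 0.0426) and 0.22 without replicate 2 (adjusted p 0.123).

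Set against Cdc42+/-, 2 of the 10 subunits changed in Cdc42-/-, and both fell, again Itgb8 and Itga4. Of all genes, 8.22% changed in this comparison, 4.68% upward and 3.54% downward. Itgb8 fell by 2.19 on the log2 scale (SE 0.20, limma adjusted p 0.00808), the Cdc42+/- mean being 7.71 times the Cdc42-/- mean. Its adjusted p was 0.110 without Cdc42+/- replicate 1 and 0.118 without Cdc42+/- replicate 2, fits in which 0 genes passed. Itga4 fell by 1.50 on the log2 scale (SE 0.31, limma adjusted p 0.0387). This call was lost in 6 of 15 alternatives: adjusted p was 0.102 without either WT library, 0.234 and 0.240 without Cdc42+/- replicates 1 and 2, 0.104 with only the compared genotypes and 0.0521 with no filter. Without Cdc42-/- replicate 1 the value was -0.99. Itgae was 0.79 higher (SE 0.19, limma adjusted p 0.0549), with the libraries not overlapping, and its adjusted p was 0.0310 without Cdc42-/- replicate 1 and 0.0306 with voom on the recovered reads, which called 3 subunits here. Without Cdc42-/- replicate 2, Itgav (-0.58, adjusted p 0.0423) and Itgb1 (-0.53, adjusted p 0.0354) passed, which with all libraries were at -0.42 (adjusted p 0.160) and -0.20 (adjusted p 0.591). Of all genes, 34.8% passed without Cdc42-/- replicate 1 and 14.9% without replicate 2. The libraries did not overlap for 5 of the 10 subunits, against 59.0% of all genes, and the median log2 fold change was -0.12 over the subunits and -0.01 over all genes. The comparison shares its Cdc42-/- libraries with that against WT.

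In Cdc42+/- against WT, 0 of the 10 subunits and 0% of all genes passed limma's threshold. At an unadjusted p under 0.05 there were 3 subunits (Itgb1, Itgb3 and Itgae) and 529 genes, and limma's voom on the recovered reads called 0 subunits and 1 gene. The libraries did not overlap for 8 of the 10 subunits, against 43.2% of all genes. The median log2 fold change was 0.17 over the subunits and 0.03 over all genes. Itgb1 was 1.77-fold higher in Cdc42+/-, a log2 fold change of 0.81 (95% confidence interval 0.26 to 1.36, limma p 0.0108, adjusted p 0.716). With only the 4 libraries of these genotypes in the fit, its adjusted p was 0.0364, and it was 0.0302 and 0.0328 without Cdc42-/- replicates 1 and 2. The authors' deposited table gives Itgb1 a log2 fold change of 0.79 (adjusted p 1.84e-11) and Itgb3 one of 0.64 (adjusted p 5.92e-06). For Itgb3 limma gave 0.63 (95% confidence interval 0.10 to 1.16, p 0.0267, adjusted p 0.975), and for Itgae 0.48 (95% confidence interval 0.03 to 0.93, p 0.0402, adjusted p 0.999). The largest shift of the other 7 subunits was that of Itgav, 0.27 (limma adjusted p 0.999).

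Since integrins work as pairs, the RNA of each alpha subunit was also set against that of a known beta partner within each library. These are ratios of RNA, as log2 of (RPKM + 1), and say nothing of how many pairs reach the surface. The ratios are described and were not tested. For the CD103 pair, Itgae over Itgb7 was -4.08 and -4.38 for WT, -3.66 and -4.15 for Cdc42+/-, and -3.29 and -3.06 for Cdc42-/-. Itga4 over Itgb7, the gut-homing pair, was -1.45 and -1.52 for WT, -1.40 and -1.50 for Cdc42+/-, and -3.64 and -2.38 for Cdc42-/-. So the 2 alpha subunits that share Itgb7 shifted in opposite directions in both Cdc42-/- libraries, by 1.05 and -1.53 in the mean. In RPKM, Itgae was 5.61% and 4.48% of Itgb7 in WT and 9.97% and 11.7% in Cdc42-/-, while Itga4 was 36.4% and 34.8% of Itgb7 in WT and 7.78% and 18.9% in Cdc42-/-.

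**Figure D3:**
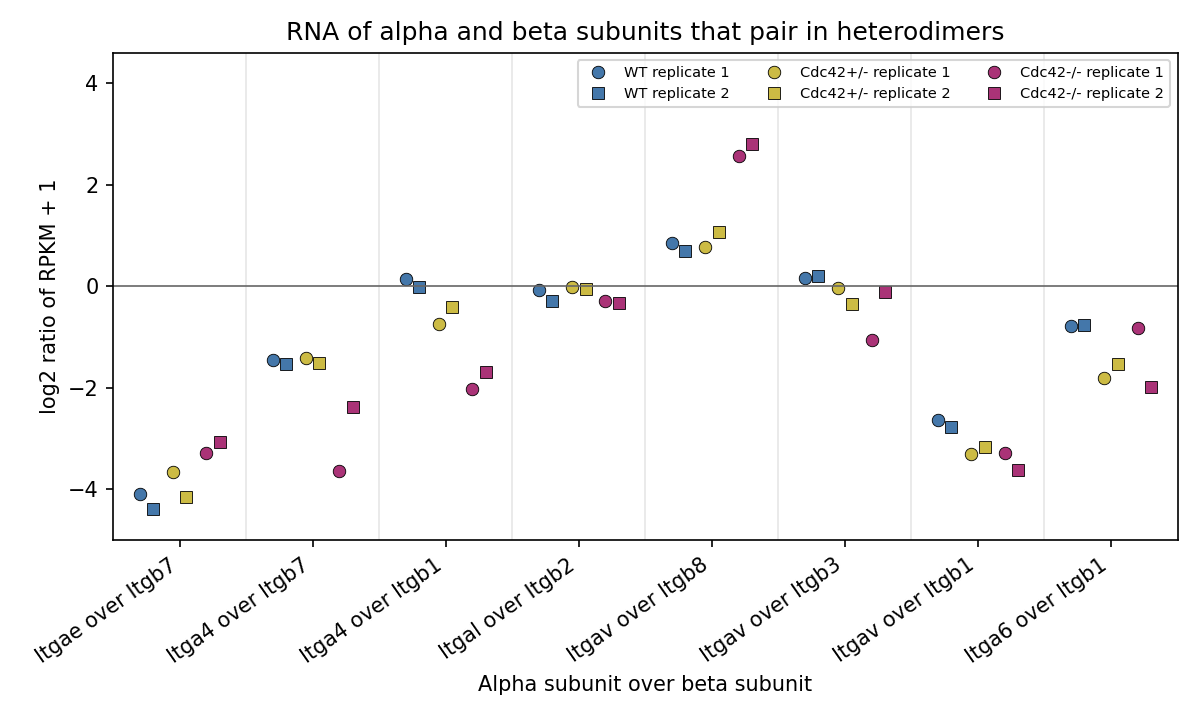
Log2 ratio of RPKM + 1 of each alpha subunit over a beta partner, 1 point a library; circles are replicate 1 and squares replicate 2, and 0 marks equal levels. Itgae over Itgb7 and Itgav over Itgb8 are highest in both Cdc42-/- libraries, and Itga4 over Itgb7 and over Itgb1 are lowest there.

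Itga4 over Itgb1, the VCAM-1 receptor, was near equality in WT (0.14 and -0.02), lower in Cdc42+/- (-0.73 and -0.40) and lowest in Cdc42-/- (-2.03 and -1.68). The 3 genotypes did not overlap, and the mean difference of Cdc42-/- from WT was -1.92. Itgav over Itgb8, the TGF-beta-activating pair, went from 0.86 and 0.70 in WT and 0.77 and 1.07 in Cdc42+/- to 2.57 and 2.81 in Cdc42-/-. This is a mean difference from WT of 1.91. Itgal over Itgb2 was -0.06 and -0.29 for WT, -0.02 and -0.05 for Cdc42+/-, and -0.29 and -0.33 for Cdc42-/-. Cdc42-/- thus differed by -0.14 from WT, where the SD was 0.16, and by -0.28 from Cdc42+/-, and no genotypes overlapped before rounding. Itgav over Itgb3, Itgav over Itgb1 and Itga6 over Itgb1 were lower than in WT for both knockout genotypes, without overlap: by -0.75, -0.76 and -0.64 in Cdc42-/- and by -0.37, -0.54 and -0.90 in Cdc42+/-. The Cdc42-/- libraries were far apart for Itgav over Itgb3 (-1.05 and -0.11) and for Itga6 over Itgb1 (-0.82 and -1.98).

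Integrin subunits outside this set were mostly low, and several were highest in the library with the myeloid markers. Of 16 further subunits, 10 could be tested, and in Cdc42-/- against WT 1 rose: Itga7, a laminin-binding alpha subunit, at 0.813 and 0.378 RPKM for WT, 1.90 and 1.48 for Cdc42+/-, and 3.51 and 2.83 for Cdc42-/- (log2 fold change 1.40, limma adjusted p 0.0231). That call was lost without either WT library (adjusted p 0.0816 without replicate 1 and 0.137 without replicate 2) and without either Cdc42+/- library (0.0804 and 0.0789), and also with only the compared genotypes (0.0797) and with array weights (0.0654). The share of 1 in 10 is near the 11.4% of all genes, and the filter on low values keeps subunits that are high in Cdc42-/- alone, so no median is given. Itgam, the alpha subunit of the myeloid integrin Mac-1, was at 0.334 and 0.382 RPKM for WT and 0.639 and 0.976 for Cdc42+/-, then at 1.74 in Cdc42-/- replicate 1 and 29.3 in replicate 2. Itgax, the alpha subunit CD11c of dendritic cells, was at most 0.270 RPKM in 5 libraries and at 4.73 RPKM in Cdc42-/- replicate 2. With all libraries Itgam did not pass (limma adjusted p 0.135), and Itgax, which passed the filter through Cdc42-/- alone, is given by its levels. Lyz2, a myeloid lysozyme, went from at most 9.75 RPKM in 5 libraries to 600 RPKM there. The log2 fold change of Itgam was 2.75 with all libraries and 1.01 without Cdc42-/- replicate 2. Without Cdc42-/- replicate 1 the only Cdc42-/- library left is the one with the myeloid markers, so no count of this group is given for that fit. In bulk RNA, more cells of a type and more RNA per cell cannot be told apart.

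**Figure D4:**
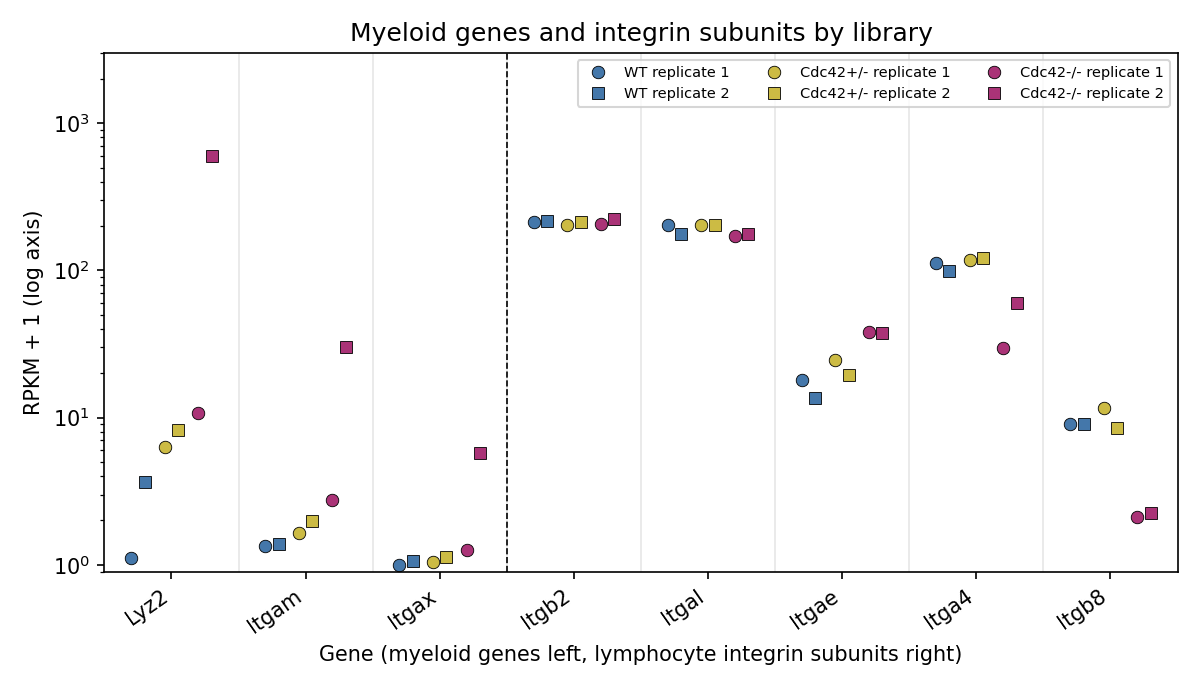
RPKM + 1 (log axis) of 3 myeloid genes (left of the dashed line) and 5 integrin subunits of T cells (right) in each library. Lyz2, Itgam and Itgax stand out in Cdc42-/- replicate 2. Between the Cdc42-/- libraries Itgb8 and Itgae are at like levels, and Itga4 is at 28.9 and 59.2 RPKM.

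Itga1, a collagen receptor subunit, also passed the filter through Cdc42-/- alone, at 0.0840 and 0.0195 RPKM for WT, 0.370 and 0.216 for Cdc42+/-, and 0.741 and 1.94 for Cdc42-/-. The other subunits of this group that reached a mean of 1 RPKM in a genotype did not pass. In Cdc42-/- against WT the log2 fold changes were 1.11 for Itga2, 0.81 for the platelet subunit Itga2b, 1.05 for Itgb5, 0.27 for the fibronectin receptor subunit Itga5, -0.15 for Itga3 and -0.26 for Itga10. Itga2, Itga2b and Itgb5 were each highest in Cdc42-/- replicate 2, and each passed in 1 of the alternatives, that without Cdc42-/- replicate 1 (adjusted p 0.00388 to 0.0155).

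Among integrin ligands and carriers, 15 of 18 genes could be tested and 3 changed in Cdc42-/- against WT, where 11.4% of all genes did. Emilin1, a matrix protein bound by the Itga4 and Itgb1 pair, rose from 1.43 and 1.11 RPKM to 5.17 and 9.26 RPKM (log2 fold change 1.81, limma adjusted p 0.0175). Tgfb1, whose latent product is the ligand of the Itgav and Itgb8 pair, rose from 84.1 and 77.9 RPKM to 110 and 120 RPKM (0.50, limma adjusted p 0.0312). Lrrc32, the GARP protein that carries latent TGF-beta on Treg cells, fell from 119 and 107 RPKM to 79.6 and 62.7 RPKM (-0.67, limma adjusted p 0.0334). Lrrc32 was already at 72.3 and 75.7 RPKM in Cdc42+/-, where it did not pass (adjusted p 0.525). Each of the 3 calls was lost when any 1 WT or Cdc42+/- library was left out, with adjusted p between 0.0536 and 0.211, and with only the compared genotypes in the fit (0.0529 for Emilin1, 0.116 for Tgfb1 and 0.106 for Lrrc32). That of Tgfb1 was also lost with array weights (0.0586). The count in this group was 9 without Cdc42-/- replicate 1, in a fit in which 36.2% of all genes passed. Against Cdc42+/-, where 8.22% of all genes passed, 1 of the 15 did, Emilin1 (1.99, limma adjusted p 0.0181). This call was lost when any 1 WT or Cdc42+/- library was left out (adjusted p 0.0587 to 0.174) and with only the compared genotypes (0.0597).

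Among proteins that switch integrins on or bind their tails, 31 of 35 genes were tested and 4 changed in Cdc42-/- against WT, a share near the 11.4% of all genes. Flna, the filamin that holds beta tails to actin, rose from 139 and 123 RPKM in WT to 243 and 264 RPKM (log2 fold change 0.95, limma adjusted p 0.00576). Rap1b, a small GTPase that turns integrins on, rose from 195 and 205 RPKM to 265 and 296 RPKM (0.48, limma adjusted p 0.0397). Skap1, an adaptor that links the T cell receptor to integrin activation, fell from 129 and 133 RPKM to 71.3 and 57.7 RPKM (-1.02, limma adjusted p 0.00781). Actn1, the actin crosslinker alpha-actinin, fell from 69.4 and 74.2 RPKM to 41.1 and 32.2 RPKM (-0.96, limma adjusted p 0.0131). Each of the 4 calls was lost when either WT library was left out (adjusted p 0.0519 to 0.218), and that of Rap1b also without either Cdc42+/- library (0.140), with only the compared genotypes (0.141), with array weights (0.0667) and with upper-quartile scaling (0.0520). The count in this group was 18 without Cdc42-/- replicate 1, where 36.2% of all genes passed, and 8 without replicate 2, where 18.5% did. Against Cdc42+/-, 3 of the 31 passed, near the 8.22% of all genes: Flna rose (0.56, limma adjusted p 0.0383), and Skap1 (-0.70, adjusted p 0.0327) and Actn1 (-0.90, adjusted p 0.0217) fell. These calls were lost when any 1 WT or Cdc42+/- library was left out (adjusted p 0.0713 to 0.309) and with only the compared genotypes (0.0974 for Flna, 0.0961 for Skap1 and 0.0726 for Actn1), and that of Flna also with array weights (0.0599). In Cdc42+/- against WT 0 genes of any of these 3 groups passed, and 1 in each had an unadjusted p under 0.05.

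Genes outside the gene groups were ranked by how closely their pattern over the 6 libraries followed that of the subunits with the highest and the lowest fold change. Likeness was the root mean square difference of centred log2(RPKM + 1), over 8154 candidate genes, and all values share the same 6 libraries. Closest to Itgae were Snrnp25, a protein of the minor spliceosome (0.042), Hyls1, a centriole protein (0.078), and Lyst, a regulator of lysosomes (0.106). Closest to Itgb8 were Cd83, a surface protein of activated lymphocytes (0.142), Peg13, an imprinted noncoding RNA (0.156), and Pdcd1, the inhibitory receptor PD-1 (0.182). Cd83 was at 46.0 and 42.0 RPKM for WT, 52.0 and 41.8 for Cdc42+/-, and 10.7 and 12.7 for Cdc42-/-. Pdcd1 was at 26.3 and 33.5 RPKM for WT, 39.2 and 37.1 for Cdc42+/-, and 7.73 and 7.32 for Cdc42-/-.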

How the data were processed

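RNA-seq libraries (TruSeq, total RNA) were made from sorted splenic Treg cells. Per the submitters' processing notes TopHat and mm10 were used, and the counting tool, annotation and strand setting are not given in the sources used here. The authors deposited RPKM per gene and library, a unit worked out from the values because the headers name none. The deposited tables also hold, per the file headers, the authors' log2 fold change, p-value and adjusted p-value, and group means, a signal (reads over size factors) used here only to recover reads. Combining RPKM and group means gave whole reads for 100% of values (tolerance 0.01), and WT reads differed between both tables at 0 genes. Reads and fragments are not told apart.

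Sample titles gave the genotypes, and 0 value columns had an unknown sample. The test was limma 3.58.1 (R 4.3.3) on log2(RPKM + 1), two-sided, for the 12233 genes averaging at least 0.5 RPKM, all 6 libraries in 1 fit, Benjamini-Hochberg adjustment over all genes, threshold 0.05. Fold changes are on the log2(RPKM + 1) scale, which understates those of low genes. Intervals are limma's moderated 95% intervals. In Cdc42-/- against WT 839 genes rose and 559 fell, or 731 and 753 with upper-quartile scaling. Limma's voom on recovered reads called 1329 genes there. The fit and the read recovery were tested on simulated data. Python 3.11.15, numpy 2.4.6, pandas 2.3.3 and scipy 1.17.1 did the rest. Gene positions, overlaps and promoters come from RefSeq (GRCm38.p6) and GENCODE, the build of mm10.

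All 10 subunits were named, then genes of 3 further groups past the threshold (up to 8 a group and comparison, smallest p first), other subunits with a mean of 1 RPKM in a genotype, Cdc42, Xist, Ddx3y and Lyz2, and the 3 genes most like the subunits with the highest and lowest fold change (mean at least 5 RPKM). The subunits and lists were chosen with earlier results of these data known. Alternatives were another pseudocount, filters, scalings, only the compared genotypes, a replicate block, array weights, voom and leaving out each library.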

Additional observations from a re-analysis of the deposited data

How the results depend on the processing

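Over 450 re-computed values of the 10 subunits (15 alternatives in each of 3 comparisons), 410 kept their direction and side of limma's threshold, 16 lost a call, 11 gained one and 13 changed sign. Most of the 410 were uncalled values that stayed uncalled, since only 3, 0 and 2 subunits were called with all libraries. Filters, a replicate block, array weights and libraries of the genotype not compared cannot change the direction of a value. The 410 is thus no measure of how firm the calls are. Leaving out 1 library gave between 1 and 5 changed subunits in Cdc42-/- against WT, 0 and 1 in Cdc42+/- against WT, and 0 and 4 in Cdc42-/- against Cdc42+/-. With only the compared genotypes in the fit, 1 subunit (Itgb1) passed in Cdc42+/- against WT and 1 (Itgb8) in Cdc42-/- against Cdc42+/-, and with no filter on low values 1 passed in the latter (Itgb8). Over all genes, 1398 passed in Cdc42-/- against WT, and 259 to 4433 with 1 library left out and 536 to 1484 otherwise. In Cdc42+/- against WT 0 passed, and at most 76 with 1 library left out, 60 with only these genotypes and 88 with array weights. In Cdc42-/- against Cdc42+/- 1006 passed, and 0 to 4263 with 1 library left out and 276 to 1179 otherwise. The cause was not tested. The mean difference of Itgav over Itgb8 was 2.52 with a pseudocount of 0.1, since Itgb8 is near the pseudocount in Cdc42-/-.

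The values that changed sign were small and never called in the fit with all libraries. With 1 library left out, log2 fold changes in Cdc42-/- against WT ranged from -0.28 to 0.22 for Itga6, from -0.31 to 0.01 for Itgav, from -0.05 to 0.04 for Itgb2, from -0.42 to 0.08 for Cdc42 (adjusted p 0.0166 without Cdc42-/- replicate 2), from -0.42 to 0.13 for Itga3 and from -0.11 to 0.65 for Itga5. In Cdc42+/- against WT the range for Itgb8 was -0.10 to 0.35. In Cdc42-/- against Cdc42+/- it was -0.18 to 0.31 for Itga6, -0.53 to 0.13 for Itgb1, -0.002 to 0.09 for Itgb2 (-0.009 with upper-quartile scaling), -0.34 to 0.28 for Itgb3 and -0.06 to 0.19 for Itgb7.

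The replicate numbers do not pair the libraries: deviations of same-numbered libraries correlated at 0.018, 0.202 and -0.034 across 12233 genes. With a replicate block 2 subunits passed in Cdc42-/- against WT (Itga4 at adjusted p 0.0526 did not), 0 in Cdc42+/- against WT and 3 in Cdc42-/- against Cdc42+/-, where Itgae reached 0.0442. In the 3 further gene groups the block ended the calls of Tgfb1 against WT (adjusted p 0.0529) and of Flna against Cdc42+/- (0.0596). Limits are 2 libraries a genotype, the myeloid, erythroid and sex-linked differences given above, and few reads of Itgb8 in Cdc42-/- (38 and 35).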
